A study of Mus musculus with 6 samples.

Results

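The genes of MHC class II antigen presentation described here are the chain genes H2-Aa, H2-Ab1 and H2-Eb1, the invariant chain gene Cd74, the peptide editor gene H2-DMa and the coactivator gene Ciita. They were taken by gene symbol, with every probe the platform annotation gives them, which made 12 probes of 34885 with 1 gene symbol and 6 genes of 19057. RNA of whole hearts from FvB mice was measured on 6 Illumina bead arrays. The groups were JMJD2A-transgenic mice after thoracic aortic constriction (TG TAC, 2 arrays), transgenic mice after sham surgery (TG sham, 1 array), wild-type mice after thoracic aortic constriction (WT TAC, 2 arrays) and wild-type mice after sham surgery (WT sham, 1 array). Thoracic aortic constriction is a band around the aorta that loads the left ventricle with pressure, and hearts were taken 3 weeks later from mice whose age is 8 weeks in the labels, although the design text gives years. JMJD2A is a histone lysine demethylase encoded by Kdm4a, and the transgene is described as heart specific. The labels used here do not state the promoter that drives it, the number of founder lines or whether an array holds 1 animal or a pool. The p-values below measure the spread between these arrays, part of which may be technical.

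MHC class II molecules are pairs of an alpha and a beta chain that show peptides from taken-up proteins to CD4+ T cells. In the cell the invariant chain fills the groove of a new pair and leads it to endosomes, and the H2-DM molecule then exchanges the last piece of the invariant chain for a peptide. The set is switched on together by the coactivator CIITA, itself induced by interferon gamma, which binds no DNA but docks on the factors RFX, CREB and NF-Y at the X and Y boxes shared by class II promoters. In the heart the genes are known mainly from macrophages, dendritic cells and B cells. FVB mice carry the q haplotype of the MHC, which makes no I-E molecule at the cell surface. The alleles of the reference genome are those of another haplotype, b.

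Promoter windows from 250 bases before to 50 bases after the annotated start were taken from RefSeq on GRCm38.p6, the reference strain and not the FvB mice measured. Windows of H2-Aa, H2-Eb1 and H2-DMa were available, and a window of H2-DMb1, the partner chain gene of H2-DMa, is set beside them because the partner list and the pattern rule below both name it. Sequences read 5′ to 3′ on the gene's strand, and capitals mark a Y box (CTGATTGG) or an X box (AACNGATG) found on either strand. The windows lie at chr17:34305617-34305916 (+) for H2-Eb1, chr17:34287774-34288073 (-) for H2-Aa and chr17:34152941-34153240 (+) for H2-DMb1.
H2-Eb1: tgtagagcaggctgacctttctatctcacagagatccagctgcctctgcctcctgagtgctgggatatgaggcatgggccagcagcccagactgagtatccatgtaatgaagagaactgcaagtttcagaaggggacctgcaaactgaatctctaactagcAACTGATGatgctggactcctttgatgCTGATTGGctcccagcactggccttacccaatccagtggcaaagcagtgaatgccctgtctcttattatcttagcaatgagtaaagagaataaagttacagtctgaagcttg
H2-Aa: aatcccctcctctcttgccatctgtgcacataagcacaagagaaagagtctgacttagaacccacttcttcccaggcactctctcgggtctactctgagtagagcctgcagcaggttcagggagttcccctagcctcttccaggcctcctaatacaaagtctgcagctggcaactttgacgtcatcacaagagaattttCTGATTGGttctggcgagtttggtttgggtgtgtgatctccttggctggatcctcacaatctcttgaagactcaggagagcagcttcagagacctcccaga
H2-DMb1: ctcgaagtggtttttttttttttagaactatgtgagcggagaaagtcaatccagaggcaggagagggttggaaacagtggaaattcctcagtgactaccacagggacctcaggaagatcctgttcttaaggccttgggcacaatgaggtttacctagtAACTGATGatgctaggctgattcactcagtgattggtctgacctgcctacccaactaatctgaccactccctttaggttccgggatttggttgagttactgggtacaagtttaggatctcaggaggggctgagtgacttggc
In H2-Eb1 the X box ended 82 bases before the start and 19 bases separated it from the Y box. In H2-Aa the Y box covered bases -51 to -44, counted from the start, and the letters searched as X box did not occur in its window. In H2-DMb1 the X box covered bases -92 to -85, and 23 bases after it stood ATTGG, the core of the Y box. The H2-DMb2 window held the X box too, at bases -121 to -114, and the H2-Eb2 window held both boxes. Over all 32851 promoter windows the Y box was found in 4.10%, the X box in 2.32%, both together in 0.0944%, and ATTGG, which every Y box contains, in 37.4%. Among the 15 windows of MHC class I pathway genes 8 held the Y box and 0 the X box. The overlapping windows of H2-K1 hold the same Y box, and so do the overlapping windows of Psmb9 and Tap1. These matches are therefore not all separate sites. The 2 windows of H2-DMa held neither box. A match describes the letters of the reference and is not a measured site.

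The values are linear intensities between 30.83 and 25873 over all arrays, with array medians of 56.3 to 56.4. Over all probes the log2 values of array pairs had r = 0.984 to 0.994. The TG TAC pair differed most within a group, with an SD of the log2 difference of 0.306 against 0.200 for the WT TAC pair. Of 10 heart muscle marker genes listed, 9 had a probe and all 9 lay between 11.24 and 14.47 (log2) on every array, far above the intensity of 58.7 used as a filter. The tested Kdm4a probe lay at 6.45 to 6.75 on TG arrays and 6.51 to 6.70 on WT arrays, so it does not separate the labelled genotypes, and the sources do not say where it lies relative to the transgene. The other 2 Kdm4a probes overlapped between genotypes too. On the second probe TG sham (7.03) and TG TAC 1 (6.86) lay above all WT arrays (6.4 to 6.49), and TG TAC 2 (6.32) lay below them. TG TAC 2 was the lowest array on every Kdm4a probe, and the cause was not tested. Xist, which is transcribed in female cells, was low on TG sham (5.41) and WT TAC 2 (5.38) and lay between 10.36 and 11.03 on the remaining 4 arrays.

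Cd74 read higher on TG than on WT arrays in both surgeries, although the sham arrays, 1 of each genotype, also differ in Xist. Its brightest probe (ILMN_1221817) read 1715 and 1479 on the TG TAC arrays, 1411 on TG sham, 767.6 and 1101 on the WT TAC arrays and 527.8 on WT sham. All 3 TG arrays lay above all 3 WT arrays. The order of the groups was TG TAC, TG sham, WT TAC and WT sham, and the TG TAC and TG sham groups did not differ beyond their spread (log2 0.17 ± 0.27, SE). A second probe gave the same order of genotypes, with 1573, 1201 and 1310 on TG TAC 1, TG TAC 2 and TG sham against 599.5, 888.4 and 469.6 on WT TAC 1, WT TAC 2 and WT sham. The third and dimmest probe read 335.9, 206.7 and 274.5 on those TG arrays and 137.0, 194.3 and 122.6 on the WT arrays, again without overlap.

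H2-Ab1, the beta chain of the I-A molecule, had 3 probes whose WT arrays spread widely. The brightest read 1029 and 546.4 on the TG TAC arrays and 698.5 on TG sham, against 348.2 and 589.3 on the WT TAC arrays and 436.9 on WT sham. The genotypes overlapped there, since WT TAC 2 lay above TG TAC 2. The second probe read 824.6, 725.6 and 810.0 on TG TAC 1, TG TAC 2 and TG sham, against 270.7, 500.2 and 314.7 on WT TAC 1, WT TAC 2 and WT sham. The third probe read 415.2, 304.3 and 309.2 on the same TG arrays, against 156.6, 260.1 and 200 on the WT arrays. On these 2 probes the TG arrays lay above all WT arrays, and on all 3 probes WT TAC 1 was the lowest array.

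H2-DMa, the alpha chain of the peptide editor, followed Cd74 at lower amplitude. Its brighter probe read 374.0 and 246.7 on the TG TAC arrays and 267.8 on TG sham, against 177.2 and 223.4 on the WT TAC arrays and 148.6 on WT sham. Its dimmer probe read 229.6, 174.0 and 190.0 on those TG arrays, against 137.4, 138.7 and 105.3 on the WT arrays. Neither probe overlapped between genotypes, and WT sham was the lowest array on both.

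The remaining members were dim. Ciita lay close to the filter, with 76.01, 65.28 and 60.22 on TG TAC 1, TG TAC 2 and TG sham against 63.83, 58.90 and 50.72 on WT TAC 1, WT TAC 2 and WT sham for its brighter probe, and the genotypes overlapped. Its second probe, below the filter on average, read 64.76, 52.49 and 56.55 on the TG arrays and 50.78, 49.46 and 42.47 on the WT arrays, without overlap. H2-Eb1, the beta chain of I-E, read 92.53, 87.96 and 90.37 on the TG arrays and 70.72, 89.73 and 90.64 on the WT arrays, so that WT TAC 1 alone stood apart and the others were level. The only H2-Aa probe, for the alpha chain of I-A, lay below the filter with 53.68, 63.25 and 54.23 on the TG arrays and 51.30, 46.96 and 51.14 on the WT arrays. These values lie near the array median, so the H2-Aa transcript was not measured well above background. Whether FvB alleles match the probes was not tested.

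**Figure D1:**
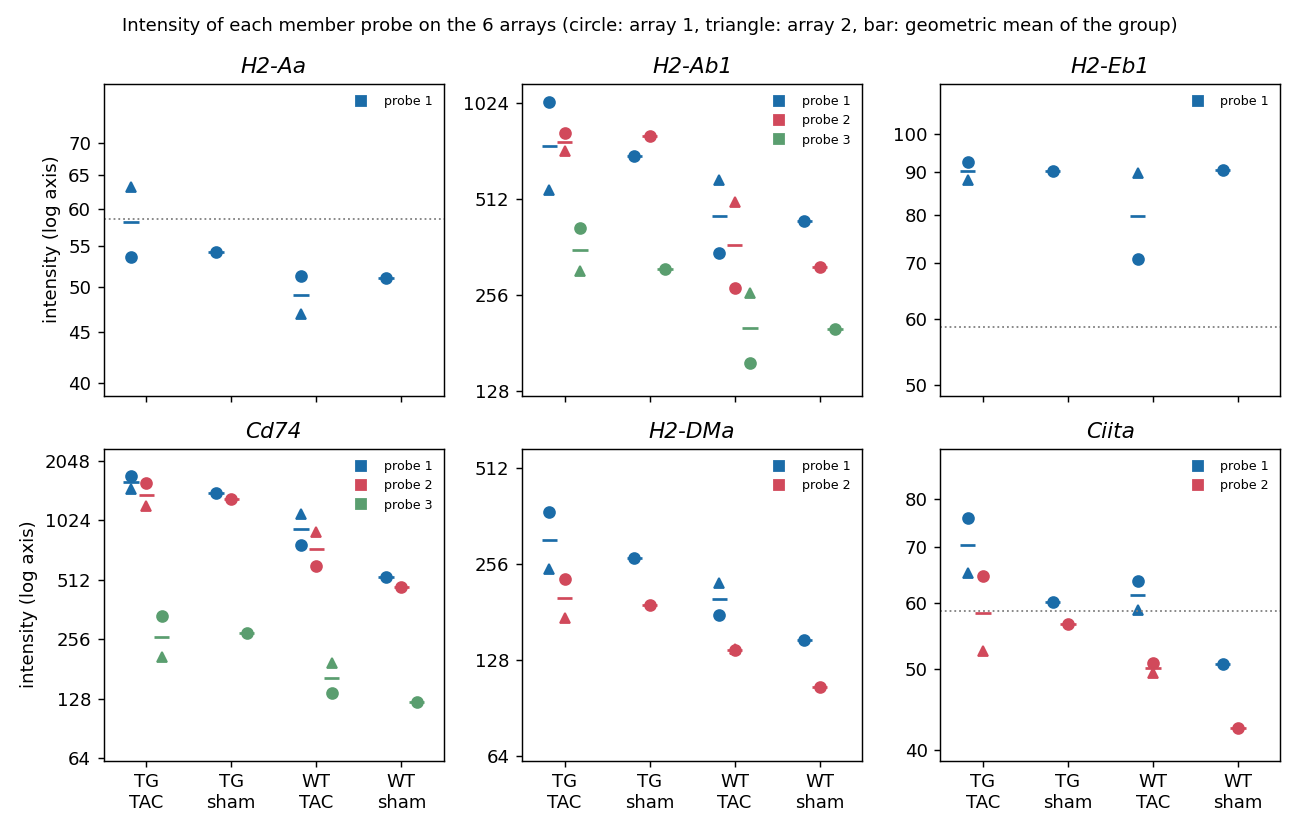
Intensity (log axis, a scale of its own for each gene) of every member probe on the 6 arrays by group, with circles for array 1, triangles for array 2, bars for the geometric mean of a group and a dotted line at the filter of 58.7 where it falls within the axis. For Cd74 and H2-DMa every TG point lies above every WT point of the same probe, whereas H2-Eb1 differs only by the low WT TAC 1 value of 70.72.

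The genotype comparison, with surgery as a term in the fit, used all 6 arrays. Cd74 rose 2.00-fold in TG arrays, with means of 10.58 in TG and 9.58 in WT arrays (log2 difference 1.00 ± 0.19, SE, 3 against 3 arrays, adjusted p = 0.0495 by limma over 11167 genes). It was 1 of 5 tested members past the test, where 0.949% of all tested genes passed in either direction and 0.663% passed as higher. H2-DMa was higher by 0.69 ± 0.19 (1.61-fold, adjusted p = 0.172), H2-Ab1 by 0.71 ± 0.26 (1.64-fold, adjusted p = 0.328), Ciita by 0.22 ± 0.09 (adjusted p = 0.422) and H2-Eb1 by 0.12 ± 0.12 (adjusted p = 0.779), none of which passed. At an unadjusted p under 0.05, 4 of the 5 were higher, against 5.65% of all tested genes. Fitted without the filter, H2-Aa stood at 0.19 ± 0.09 (adjusted p = 0.572). The arrays of Cd74 and H2-DMa, 2 of 5, were higher in TG without overlap, against 7.59% of all tested genes. The median over the 5 tested members was 0.69, beside -0.01 over all tested genes.

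The Cd74 call was a narrow one. Cd74 was the 104th of 106 genes past the test by p, and the next gene outside had an adjusted p of 0.0524. Its adjusted p was 0.435 without WT sham and 0.446 without TG sham, at a difference of 0.79 in each. Both fits reduce to TG TAC against WT TAC, 2 against 2 arrays, since the remaining sham array fixes the surgery term. The adjusted p was 0.265 without WT TAC 1, 0.0514 without WT TAC 2 and 0.0627 without TG TAC 1, with differences of 0.91 to 1.21. Without TG TAC 2 it was 0.0135. Without TG TAC 2, H2-DMa (0.88, adjusted p = 0.0175) and H2-Ab1 (0.97, adjusted p = 0.0446) passed as well. For Cd74 the adjusted p in limma was 0.0889 with each probe as a row, 0.0784 by the median over its probes and 0.0749 when the trend on intensity was dropped. It was 0.0328 without the filter and 0.0462 with background subtracted. Adding Xist as a covariate gave 0.0342. Without both arrays of low Xist the Cd74 difference was 1.05. That fit compares the 2 TG TAC arrays with WT TAC 1 alone, since WT sham, then the only sham array, fixes the surgery term.

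Probe by probe the genotype difference was similar for Cd74, at 1.00 ± 0.19, 1.1 ± 0.21 and 0.85 ± 0.23 from brightest to dimmest. For H2-DMa it was 0.69 ± 0.20 and 0.64 ± 0.16. H2-Ab1 had 0.71 ± 0.27, 1.17 ± 0.23 and 0.75 ± 0.22, so the probe that stands for the gene gave the smallest of its 3 differences. With each probe as a row none of these passed, and the smallest adjusted p was 0.0834, for the second Cd74 probe. Of the 10 member probes above the filter 7 did not overlap between genotypes, all higher in TG, against 7% of all 17442 probes above the filter. TG TAC 1 was the highest array on 10 of these 10, against 18.8% of all probes above the filter. Of all 12 probes the lowest array was WT sham on 7, WT TAC 1 on 4 (the probes of H2-Ab1 and H2-Eb1) and WT TAC 2 on 1, the H2-Aa probe.

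After TAC the same genotype contrast rested on 2 against 2 arrays. Cd74 was at 10.64 in TG TAC and 9.84 in WT TAC (log2 difference 0.79 ± 0.22, adjusted p = 0.451), H2-Ab1 at 0.73 ± 0.35, H2-DMa at 0.61 ± 0.26, Ciita at 0.20 ± 0.12 and H2-Eb1 at 0.18 ± 0.16. None of the 5 passed, with adjusted p of at least 0.451 in limma, where 0.206% of all tested genes did. Cd74 and H2-DMa were higher at an unadjusted p under 0.05, against 2.87% of all tested genes. Cd74, H2-DMa and Ciita did not overlap, against 15.5% of all genes that were higher without overlap.

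Between the sham arrays, 1 of each genotype, no test is possible. Xist was low on TG sham (5.41) and high on WT sham (10.5), so sex and genotype cannot be told apart in this pair. Cd74 was 2.67-fold, 2.79-fold and 2.24-fold higher on TG sham than on WT sham by its 3 probes, and H2-Ab1 was 1.60-fold, 2.57-fold and 1.55-fold higher. H2-DMa was 1.80-fold higher by both probes, Ciita 1.19-fold and 1.33-fold, and H2-Eb1 was level at 0.997-fold. A log2 difference of at least 1 was seen for 0.663% of tested genes, Cd74 among them at 1.42.

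**Figure D2:**
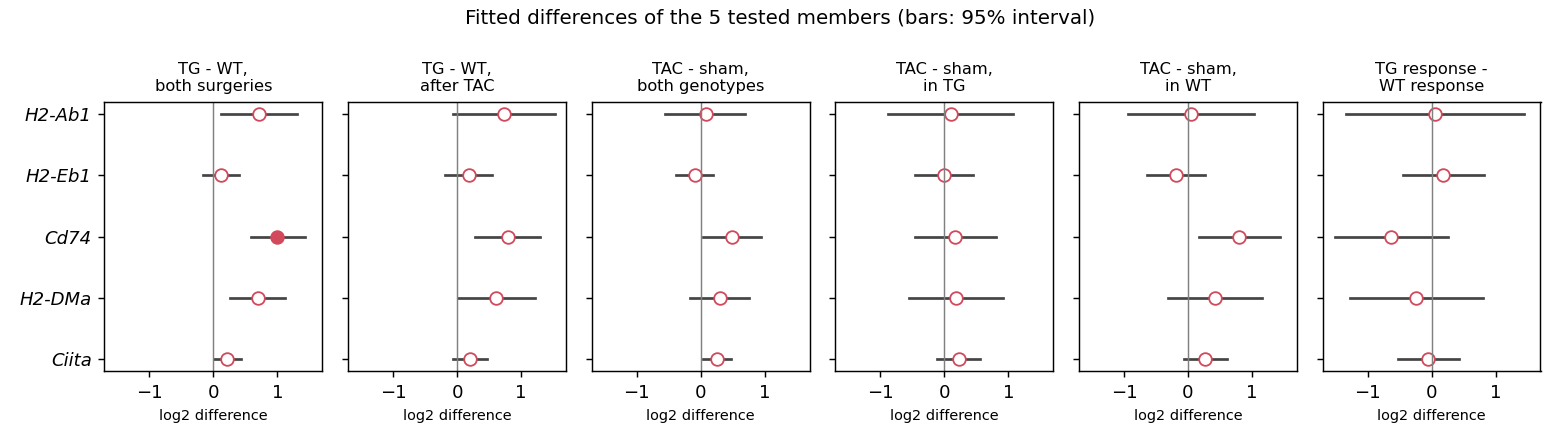
Log2 differences (points) with 95% intervals (bars) of the 5 tested members in 6 comparisons, each panel on the same axis; a filled point passed the test. Cd74 between genotypes over both surgeries (1.00) is the only filled point, and the intervals of the TAC comparisons are wide.

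TAC against sham asks what pressure overload changed. None of the 5 members passed over both genotypes in limma, where 0.00895% of all tested genes did. Cd74 was higher by 0.49 ± 0.20 (4 against 2 arrays, adjusted p = 0.504), Ciita by 0.25 ± 0.10 (adjusted p = 0.497) and H2-DMa by 0.30 ± 0.20, while H2-Ab1 stood at 0.08 ± 0.28 and H2-Eb1 at -0.09 ± 0.13. Cd74 and Ciita were higher at an unadjusted p under 0.05, against 4.76% of all tested genes. None of the 5 separated the TAC from the sham arrays, where 8.39% of all tested genes were higher without overlap; for Cd74, H2-Ab1 and H2-DMa the TG sham array lay above both WT TAC arrays.

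Within wild type the members did not move as 1 set. Cd74 was higher than WT sham by 0.54 on WT TAC 1 and 1.06 on WT TAC 2 (fitted 0.80 ± 0.27, adjusted p = 1.00), and H2-DMa by 0.25 and 0.59. H2-Ab1 was lower on WT TAC 1 and higher on WT TAC 2, by -0.33 and 0.43 on its brightest probe, -0.22 and 0.67 on the second and -0.35 and 0.38 on the third. H2-Eb1 differed by -0.36 and -0.01. No gene of 11167 passed this comparison in limma (0%), and 3.56% had an unadjusted p under 0.05. As higher these were 1.89% of all tested genes, Cd74 among the members. Both WT TAC arrays lay above WT sham for Cd74, H2-DMa and Ciita, 3 of 5 members, against 34.4% of all tested genes. WT TAC 2, which lay above WT TAC 1 on 9 of 12 member probes, is an array of low Xist, and the part of sex in this difference was not tested.

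Within transgenic arrays Cd74 differed from TG sham by 0.28 on TG TAC 1 and 0.07 on TG TAC 2 (fitted 0.17 ± 0.27, adjusted p = 0.991). H2-DMa differed by 0.48 and -0.12, and the brightest H2-Ab1 probe by 0.56 and -0.35. TG sham is an array of low Xist and both TG TAC arrays are high in it. Sex and surgery therefore cannot be told apart within the transgenic arrays. TG TAC 1 was above TG TAC 2 on 11 of 12 member probes, so the spread within this group ran the same way for nearly all members. No gene passed here either (0%), and 4.86% had an unadjusted p under 0.05, with 0 of the 5 members. The TAC response in TG minus that in WT was -0.63 ± 0.39 for Cd74 (95% interval -1.51 to 0.26), -0.24 ± 0.45 for H2-DMa and 0.05 ± 0.60 for H2-Ab1, all at adjusted p = 1.00 in limma. No gene passed that comparison (0%; 1.64% had an unadjusted p under 0.05, none of them a member). TG sham and WT TAC 2, the arrays of low Xist, both enter it with a minus sign, so sex and a differing response cannot be told apart.

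None of the partner genes of the pathway passed the test. Of 17 listed class II pathway partners 14 were tested, and between genotypes 11 were higher and 3 lower with a median of 0.05, beside 47.6% higher among all tested genes; 0 passed in limma and 3 were higher at an unadjusted p under 0.05, against 5.65% of all tested genes. Those with the smallest p were Cd83, which keeps class II and Cd86 at the cell surface (0.65 ± 0.14, adjusted p = 0.0909), H2-DMb2 (0.39 ± 0.12) and H2-DMb1 (0.52 ± 0.17), the beta chains that pair with H2-DMa, and the costimulatory ligand gene Cd86 (0.32 ± 0.16). Cd83 stood at 8.10, 7.89 and 8.04 (log2) on TG TAC 1, TG TAC 2 and TG sham, against 7.24, 7.35 and 7.49 on WT TAC 1, WT TAC 2 and WT sham. Ifi30, the thiol reductase of endosomes (-0.14 ± 0.13), and H2-Ob, a chain of the H2-DM inhibitor (-0.04 ± 0.12), were not higher. H2-Ea, H2-Eb2 and H2-Oa lay below the filter. Between TAC and sham 8 of 14 were higher and 6 lower (median 0.05), beside 48.6% higher among all tested genes. Of these 0 passed in limma and 2 were higher at an unadjusted p under 0.05, against 4.76% of all tested genes. Marchf1, the ubiquitin ligase that removes class II from the surface, had the smallest p there (0.40 ± 0.09, adjusted p = 0.274).

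Genes of the factors and signals that act with Ciita lay on both sides of 0. Of the 11 tested genes of class II transcription and interferon gamma signalling 4 were higher and 7 lower in TG arrays, with a median of -0.04 beside -0.01 over all tested genes. Interferon-induced Cxcl9 (0.51 ± 0.17, adjusted p = 0.279) and Gbp2 (0.38 ± 0.15) were higher and the receptor kinase gene Jak1 was lower (-0.50 ± 0.14, adjusted p = 0.198). Cxcl9 was level between the sham arrays, at 6.44 (log2) on TG sham and 6.43 on WT sham. On TG TAC 1 and TG TAC 2 Cxcl9 stood at 6.99 and 7.17, against 6.17 and 6.47 on WT TAC 1 and WT TAC 2. None passed in limma, and 3 had an unadjusted p under 0.05 in either direction, against 11.5% of all tested genes. Ifng itself, Rfx5, Rfxank and Nfya lay below the filter.

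The MHC class I pathway, which shows peptides from inside the cell to CD8+ T cells, was higher between genotypes in 11 of 15 tested genes, with a median of 0.31, beside 47.6% higher and a median of -0.01 over all tested genes. B2m, the light chain of all class I molecules, had the smallest p (0.53 ± 0.11, adjusted p = 0.0839), at 12.97, 13.18 and 12.68 (log2) on TG TAC 1, TG TAC 2 and TG sham against 12.41, 12.70 and 12.13 on WT TAC 1, WT TAC 2 and WT sham. Nlrc5, the class I counterpart of Ciita, was at 0.57 ± 0.15 (adjusted p = 0.155), Pdia3 of the peptide loading complex at 0.50 ± 0.15 and H2-Q6 at 0.51 ± 0.17. None passed in limma, and 6 were higher at an unadjusted p under 0.05, against 5.65% of all tested genes. Between TAC and sham over both genotypes 14 of 15 were higher (median 0.24), beside 48.6% and a median of -0.01 over all tested genes. Of these 0 passed in limma and 2 were higher at an unadjusted p under 0.05, against 4.76% of all tested genes. H2-Q6 has close relatives in its family, which its probe may not tell apart.

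**Figure D3:**
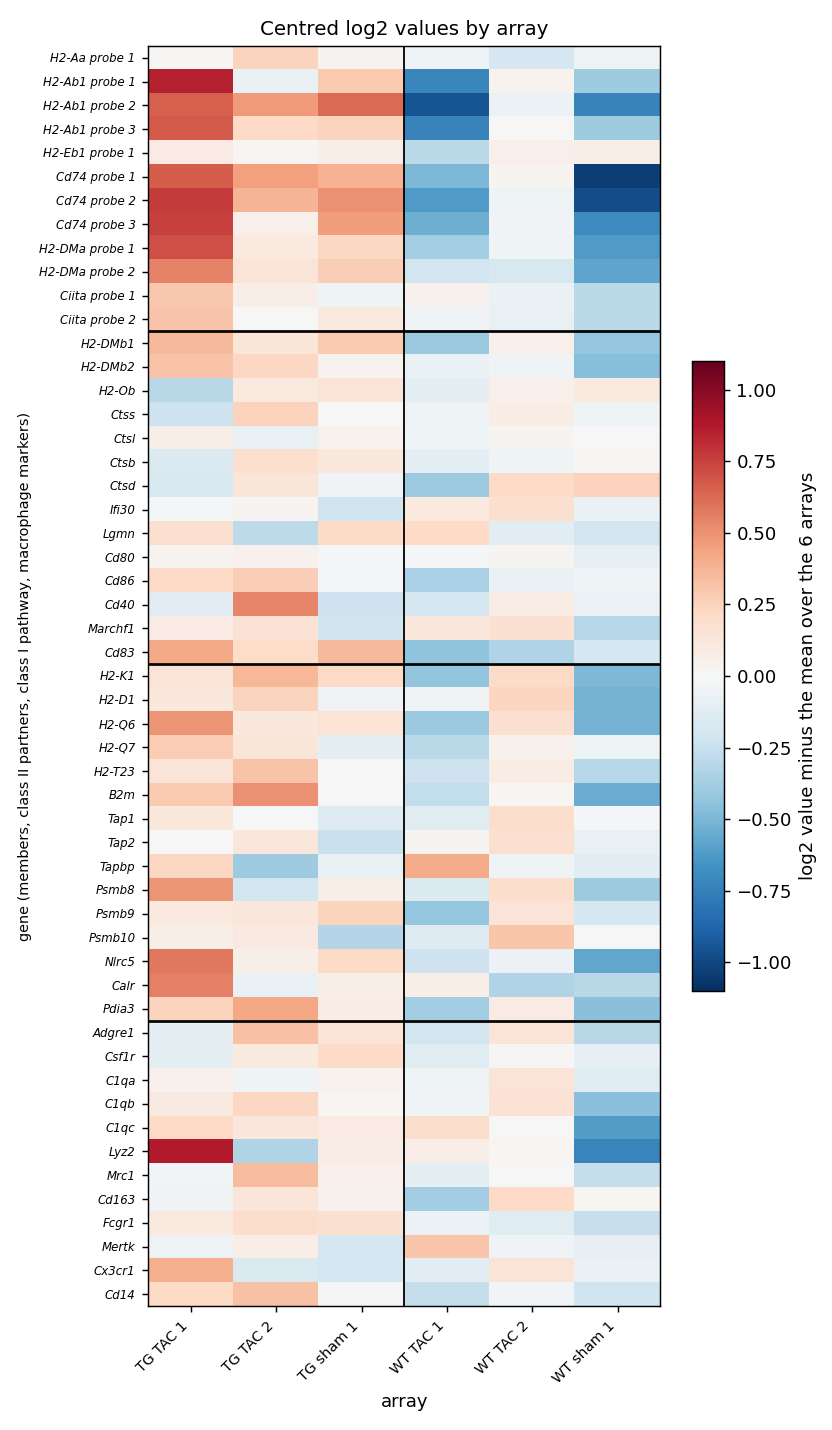
Log2 values minus the mean over the 6 arrays, by array (columns, TG left of WT) for the 12 member probes, and below the black lines for tested class II partners, class I pathway genes and macrophage markers. Red is above and blue below the gene's mean. The probes of Cd74, H2-Ab1 and H2-DMa are red on TG TAC 1 and TG sham and blue on WT TAC 1 and WT sham. The brightest H2-Ab1 probe is slightly below its mean on TG TAC 2. Of the macrophage markers C1qc and Lyz2 are bluest on WT sham. Cd163, Csf1r and Cd14 are lowest on WT TAC 1, and Mertk and Cx3cr1 on TG sham.

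Markers of the cells that carry class II were read beside these values. In bulk RNA, more cells of a type and more RNA per cell cannot be told apart. Of 15 macrophage markers listed 12 were tested, and 11 were higher in TG arrays (median 0.24), beside 47.6% and a median of -0.01 over all tested genes. None passed in limma, and 2 were higher at an unadjusted p under 0.05, against 5.65% of all tested genes. Their summed intensity was 7042, 5826 and 5731 on TG TAC 1, TG TAC 2 and TG sham. It was 5570, 5732 and 4111 on WT TAC 1, WT TAC 2 and WT sham, so the ranges overlapped by a narrow margin. Lyz2 was the brightest marker on TG TAC 1, at 11.36 (log2) there against 10.16 on TG TAC 2, and weighs on that sum. The mean centred log2 of the markers was 0.14, 0.11 and 0.04 on those TG arrays and -0.06, 0.05 and -0.27 on the WT arrays. Fcgr1, an Fc receptor (0.31 ± 0.09, adjusted p = 0.201), Cd14 (0.34 ± 0.15) and the complement gene C1qc (0.29 ± 0.16) had the smallest p, and Ccr2 and Itgam lay below the filter. With the macrophage mean as a covariate, a setting added after the data were seen, Cd74 differed between genotypes by 0.24 ± 0.28 (adjusted p = 1.00), H2-Ab1 by 0.14 ± 0.53 and H2-DMa by 0.24 ± 0.39. That fit keeps few degrees of freedom, and 2 genes of 11167 passed it. The marker mean itself ran higher in TG arrays, so this fit cannot tell marker level from genotype. The part of macrophage number in the Cd74 difference was not tested.

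Many dendritic, B and T cell markers lay below the filter. Of 11 dendritic cell markers 5 were tested, 2 higher and 3 lower in TG arrays, with Itgax, Flt3, Xcr1, Clec9a, Cd209a and Batf3 below the filter; the tested ones summed to 405.2 to 450.6 on TG arrays and 432.3 to 438.5 on WT arrays. Zbtb46, a transcription factor gene of classical dendritic cells, was above the filter throughout, at 6.97 to 7.21 (log2) on TG and 7.09 to 7.32 on WT arrays. Of 6 B cell markers with a probe only Cd79b was tested (-0.01 ± 0.14), and Ms4a1, Pax5, Blk, Cd22 and Fcmr were below the filter. Of 8 T cell markers with a probe 4 were tested, 1 higher and 3 lower, and Cd4, Cd8a, Cd5 and Cd2 lay below the filter. The tested ones summed to 535.1 to 1065 on TG and 703.5 to 943.1 on WT arrays, most of it from Thy1, at 8.49 to 9.74 (log2) on TG and 8.94 to 9.57 on WT arrays (-0.33 ± 0.30), while Cd3d, Cd3e and Cd3g of the T cell receptor complex lay between 5.82 and 6.32 on all arrays. Of 8 endothelial markers 7 were tested, with 7 of 7 lower in TG arrays (median -0.24, beside -0.01 over all tested genes; 0 past the test in limma, 0 at an unadjusted p under 0.05, against 11.5% of all tested genes in either direction), summing to 13370 to 18830 on TG and 16270 to 18700 on WT arrays. The mean centred log2 of the endothelial markers was -0.26, 0.29 and -0.35 on TG TAC 1, TG TAC 2 and TG sham. It was 0.09, 0.19 and 0.05 on WT TAC 1, WT TAC 2 and WT sham. TG TAC 2 was thus the highest array by this mean, and the lower TG values came from TG TAC 1 and TG sham. With the endothelial mean as a covariate Cd74 stood at 0.89 ± 0.20 (adjusted p = 0.0833 in limma).

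**Figure D4:**
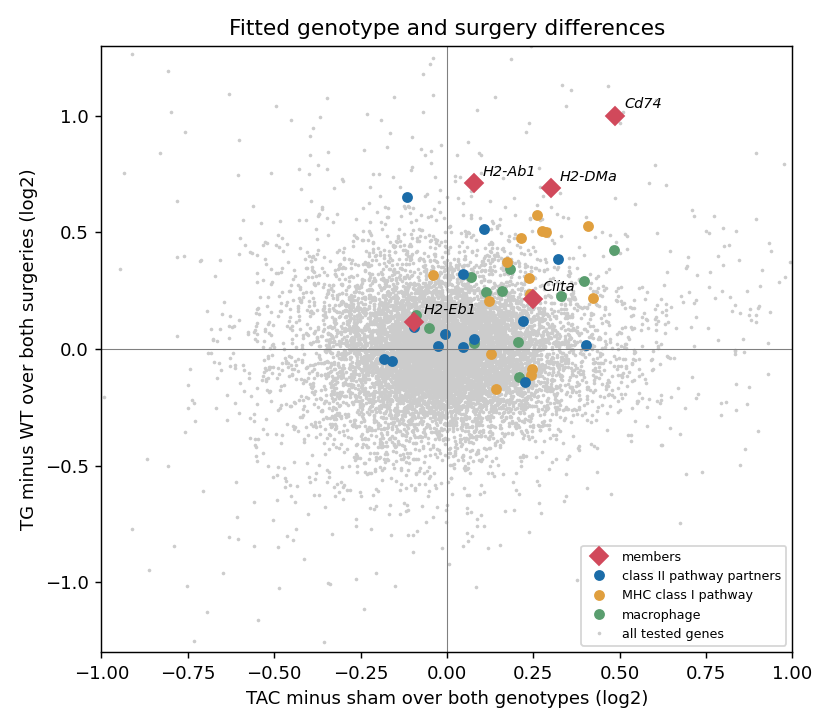
Fitted log2 difference TAC minus sham over both genotypes (horizontal) against TG minus WT over both surgeries (vertical) for all tested genes (grey; 77 lie outside the drawn range) and the named lists. Cd74 (0.49 and 1.00), H2-DMa (0.30 and 0.69) and H2-Ab1 (0.08 and 0.71) lie above every gene of the 3 lists drawn on the vertical axis, Cd83 at 0.65 being the nearest; both axes share the 6 arrays.

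The genes most like the set were ranked by the root mean square difference between their centred log2 values and the mean centred profile of the tested genes among the chain genes and Cd74 (H2-Ab1, H2-Eb1 and Cd74) over the 6 arrays, with no test. That profile ran at 0.54, 0.14 and 0.24 on TG TAC 1, TG TAC 2 and TG sham and -0.50, 0.04 and -0.45 on WT TAC 1, WT TAC 2 and WT sham. The nearest of 11162 genes were H2-Q6 (0.081), H2-DMb1 (0.087), Gbp3 (0.112), Insl6 (0.124), Nlrc5 (0.131), Gbp2 (0.131), Nudt5 (0.136) and Acss2 (0.141), against a median of 0.410 over all genes compared. H2-DMb1 stood at 7.62, 7.40 and 7.55 (log2) on the TG arrays in that order and at 6.86, 7.32 and 6.84 on the WT arrays. Gbp3, an interferon-induced GTPase gene, stood at 8.95, 8.77 and 8.60 on the TG arrays and at 8.12, 8.56 and 7.93 on the WT arrays. These 8 genes were picked on the same 6 arrays to follow a profile that runs higher in TG. Their genotype difference therefore follows from the choice and is no separate result. Between genotypes they differed by 0.38 to 0.57, and none passed in limma, with adjusted p from 0.127 for Insl6 to 0.390 for Gbp2.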

How the data were processed

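Total RNA of mouse hearts was isolated in Trizol, cleared of DNA with DNase I and copied into biotinylated cRNA for Illumina arrays, per the labels' protocols. The authors deposited normalized intensities, 1 value for each probe of an array; the sorted columns are nearly identical, the pattern of quantile normalization, and no label names the software or background correction. Values below 32 (12 in all) were set to 32 and log2 was taken; no background was subtracted, so differences of dim probes are understated. The platform annotation gave 1 symbol to 34885 of the 45281 probes, several to 18 and none to 10378. A gene was represented by its brightest probe, and genes above the 50th percentile of probe means, an intensity of 58.7, were tested (11167 of 19057). The number of arrays limits the precision.

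lmFit and eBayes with an intensity trend (limma 3.58.1, R 4.3.3) were fitted to surgery plus genotype (3 residual degrees of freedom) and to the 4 groups (2), with Benjamini-Hochberg adjustment over 11167 genes at 0.05 and 95% intervals; the spread of a lone sham array was taken from the TAC arrays. The fits were tested on simulated data. Named were all members, of each list up to 4 genes with the smallest p for genotype and for surgery, and the 8 genes of most similar pattern; genes named as below the filter were added after their values were seen. The members, lists and alternatives were chosen with earlier results of these data known.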

Additional observations from a re-analysis of the deposited data

How the results depend on the processing

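The direction of the Cd74, H2-Ab1, H2-DMa and Ciita genotype differences over both surgeries held in all alternatives run, with ranges of 0.24 to 1.21, 0.14 to 1.11, 0.24 to 0.88 and 0.13 to 0.45, and H2-Eb1 ran from 0 to 0.35. In that comparison 106 genes passed, 49 with the median of all probes per gene, 54 with Xist as a covariate and 2 with the macrophage mean. With 1 array left out 24 to 473 passed. Without both arrays of low Xist the genotype difference rested on WT TAC 1 alone for WT, so no count is given. Of the members 1 passed, Cd74, and it also passed without the filter, with background subtracted or with Xist as a covariate. With each probe as a row, the median over probes, no intensity trend, or the macrophage or endothelial mean, 0 members passed. With 1 array left out 0 to 3 members passed. For TAC against sham over both genotypes 1 gene passed, 2 without the filter and 0 without the trend or with Xist as a covariate. With 1 array left out 0 to 37 passed. After TAC between genotypes 23 genes passed, 38 without the filter, 5 by the median over probes, 9 with each probe as a row, 8 without the trend and 0 to 189 with 1 array left out. Within WT 0 passed, 5 without the filter and 0 to 11 with 1 array left out; within TG 0 passed, 1 without the filter and 0 to 239 with 1 array left out; for the difference of the responses 0 passed, and 0 to 1 with 1 array left out. Across these TAC comparisons and the genotype contrast after TAC the number of members past the test stayed at 0 in every alternative run.

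The TAC differences of dim or variable members changed sign. Over both genotypes H2-Ab1 ranged from -0.12 to 0.27 with 1 array left out. Leaving out a sham array leaves TAC against sham within 1 genotype. With the macrophage mean H2-Ab1 stood at -0.45, Cd74 at -0.21 and H2-DMa at -0.11. Without both arrays of low Xist H2-Ab1 stood at -0.33, which is WT TAC 1 minus WT sham alone and not a value over both genotypes. With 1 array left out, H2-Ab1 ranged from -0.33 to 0.43 within WT and from -0.35 to 0.56 within TG, where H2-DMa ranged from -0.12 to 0.48 and H2-Eb1 from -0.04 to 0.03; by the median over probes H2-Ab1 was -0.06 within TG. For the difference of the responses H2-Ab1 ranged from -0.41 to 0.51, H2-DMa from -0.54 to 0.06 and Ciita from -0.16 to 0.06 with 1 array left out, H2-Ab1 was -0.28 by the median over probes and Ciita 0.20 with background subtracted. The cause of these changes was not tested. Ciita has no value by the median over its probes, which falls below the filter.

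With the replicate number of the TAC arrays as a block, 61 genes passed between genotypes after TAC and Cd74 stood at 0.79 ± 0.24 (adjusted p = 0.349 in limma). The TAC 1 minus TAC 2 differences of the genotypes correlated across genes at r = -0.0293, so the numbers were not taken to pair the samples. Dim probes limit what can be said of H2-Aa, H2-Eb1 and Ciita.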

Other observations

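On chromosome 17 the gene table of GRCm38.p6, used here for order only, places 8 other protein-coding genes from H2-DMa to H2-Eb2. Of these 7 were tested, 4 higher and 3 lower in TG arrays, beside 47.6% higher among all tested genes. In limma 0 passed, where 0.949% of all tested genes did. H2-DMb2 (0.39 ± 0.12) and H2-DMb1 (0.52 ± 0.17), next to H2-DMa, were higher, and the immunoproteasome genes Psmb9 (0.32 ± 0.17) and Psmb8 (0.24 ± 0.20) had smaller differences. The peptide transporter genes Tap1 (-0.02 ± 0.12) and Tap2 (-0.09 ± 0.13) and H2-Ob (-0.04 ± 0.12), which also lie between H2-DMa and H2-Ab1 (0.71 ± 0.26), stood close to 0. These neighbours were chosen after their values were seen.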
